A study of Mus musculus with 4 samples.

Results

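The suppressor of cytokine signalling (SOCS) family was examined in mouse bone marrow derived macrophages that lacked PP2ACα, a catalytic subunit of the serine/threonine phosphatase PP2A, whose gene is Ppp2ca. The members were taken by name, Cish and Socs1 to Socs7, and all 8 had an array feature that the platform annotation assigns to that gene symbol alone, among 22180 genes with such a feature. Where a gene had several features, the brightest over all arrays stood for it. Whole-transcript expression was measured on 4 one-colour arrays, 2 of knockout cells and 2 of control cells; the labels call them biological replicates and leave the number of mice unstated. The knockout cells were PP2ACαfl/fl;lyM-Cre, with both floxed alleles of PP2ACα and a Cre recombinase that removes exon 1 in myeloid cells. The label lyM is read here as the lysozyme M promoter. The control cells were PP2ACαfl/fl, with the same floxed alleles and no Cre, so the Cre itself was present in the knockout cells alone. Strain and age of the mice are not given in the sources used here. All cells had been grown for 6 days with L-cell supernatant, a source of macrophage growth factor, and had received 100 ng/ml of lipopolysaccharide (LPS), the bacterial cell wall component sensed by Toll-like receptor 4, for 2 hours. The comparison therefore asks how SOCS transcripts differ between the genotypes in LPS-stimulated cells, and says nothing of how LPS changed them.

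SOCS proteins are the feedback brakes of cytokine receptors that signal through JAK kinases and STAT transcription factors. Each has an SH2 domain, which binds phosphotyrosine on receptors or kinases, and a SOCS box, which binds elongins B and C and cullin 5 and so marks the bound protein for destruction. SOCS1 and SOCS3 also carry a short inhibitory region that blocks JAK activity directly, and several members are themselves transcribed through the STATs they restrain. In macrophages SOCS3 is known for limiting signals through gp130, the shared receptor of the IL-6 family, and SOCS1 for limiting interferon signals.

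The targeted gene was lower in the cells labelled knockout. Ppp2ca read 4.36 and 3.39 log2 units on the knockout arrays, against 8.25 and 7.59 on the control arrays, a difference of -4.04 (SE 0.36, limma adjusted p = 0.0076), or -2.14 (adjusted p = 0.0057) with all of its features averaged. Ppp2cb, the gene of the beta catalytic subunit, had a difference of -0.04 (SE 0.09, adjusted p = 0.83). All 10 macrophage markers on the list, among them Adgre1, Csf1r and Cd68, were above the filter level, which was the median over all features, 3.53 log2 units. Of these, Fcgr1, the gene of a high-affinity Fc receptor, rose by 0.94 (SE 0.12, adjusted p = 0.016) and none fell; the list's mean level was 10.38 and 10.39 on the knockout arrays, against 10.23 and 10.19 on the control arrays. All 3 monocyte markers with a feature rose: Ms4a4c by 1.50, Ccr2 by 0.83 and Ly6c2 by 0.76 log2 units. Their mean level was 7.24 and 7.23 on the knockout arrays, against 6.21 and 6.21 on the control arrays, and their part in the results below was not tested. Of 10 neutrophil markers 5 reached the filter level and 1 of these, Mmp8, fell, by 0.84. The other 4 went the other way without passing. These were S100a9 at 0.11, Mpo at 0.26, Ltf at 0.34 (limma adjusted p = 0.083) and Csf3r at 0.44 (adjusted p = 0.058). The mean of the neutrophil list was 4.50 and 4.47 in knockout cells and 4.42 and 4.42 in control cells. Of 6 dendritic cell markers 3 reached the filter level, of 6 T and NK cell markers 3, of 5 fibroblast markers 2 and of the erythroid list the 1 marker with a feature, and none of these passed the test. Among them Cd209a differed by -0.04, Ccr7 by 0.40 (adjusted p = 0.064) and Cd4 by 0.49 (adjusted p = 0.057). None of 3 B cell or 4 mast cell and basophil markers reached the filter level. Pairs of arrays correlated across features at 0.986 to 0.990.

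Socs3 fell and was the one member that passed the test. The other 7 did not pass in either direction, which does not show that they did not differ. Of the 8 members, all of which reached the filter level, 1 was called (12.5%), where 6.79% of the 12542 genes tested were called, 3.49% as lower and 3.30% as higher. With so few members, that share is no result about the family. The median difference of the members was -0.01 log2 units, against 0.01 over all genes tested, and the median size of the difference was 0.18 for the members and 0.15 for all genes. In 5 members (62.5%) both knockout arrays lay on one side of both control arrays, which was also so for 55.3% of all genes, 26.5% with the knockout arrays lower and 28.8% with them higher. A test was counted as passed at a Benjamini-Hochberg adjusted p under 0.05 over all genes tested, in limma's fit of the 2 knockout against the 2 control arrays.

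**Figure D1:**
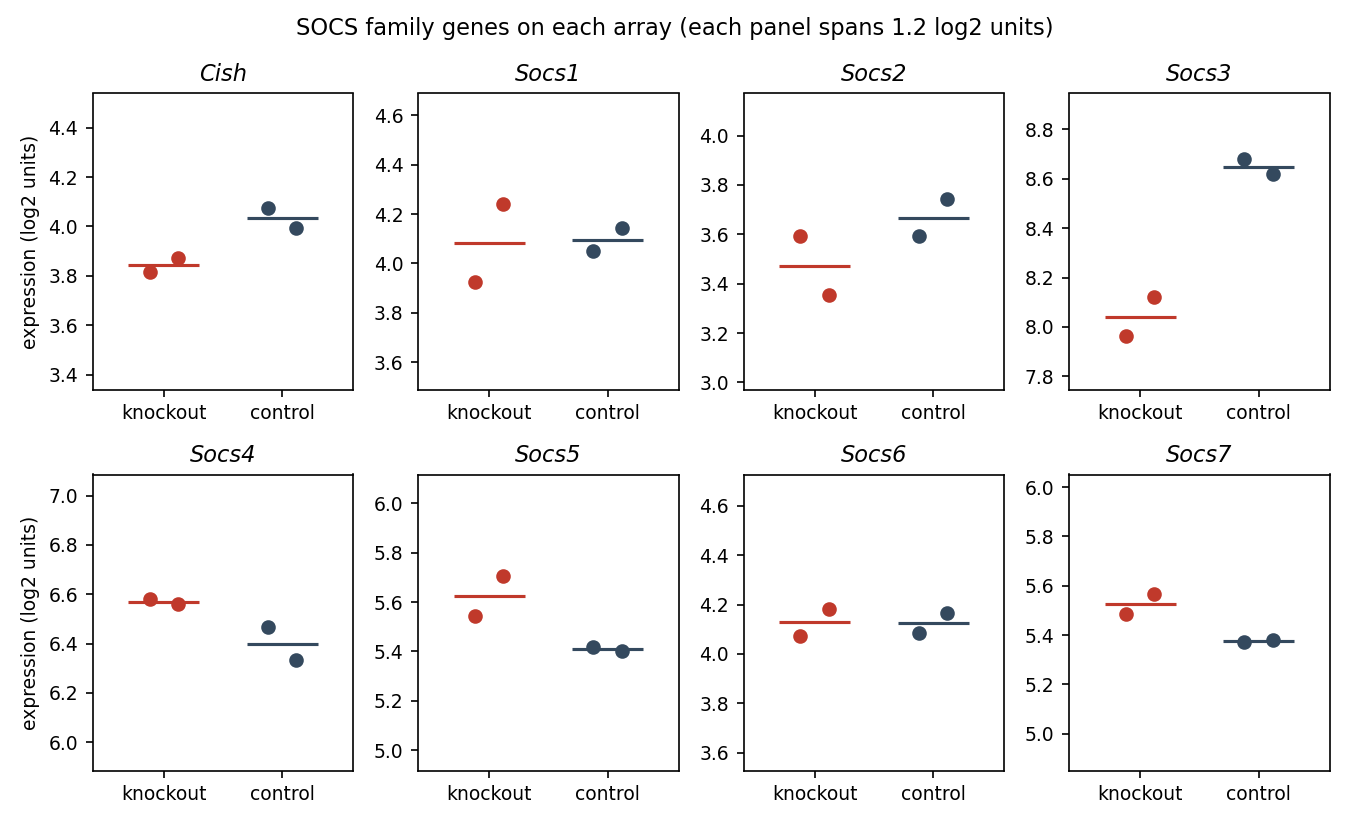
Expression in log2 units (y axis) of each SOCS gene on the 2 knockout arrays (red, left) and 2 control arrays (dark blue, right). Points are arrays and lines are group means; every panel spans the same range, but levels of different genes come from different probes and are not comparable. The Socs3 groups are 0.61 log2 units apart, and those of Socs1 and Socs6 lie on top of each other.

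Socs3 was the member with the widest gap between genotypes. It read 7.96 and 8.12 log2 units in knockout cells, against 8.68 and 8.62 in control cells. Both knockout arrays lay below both control arrays, and the gap between the groups exceeded the spread within either. The means were 8.04 ± 0.11 in knockout and 8.65 ± 0.04 in control cells (SD, n = 2 each). The difference was -0.61 (SE 0.10, 95% confidence interval -0.85 to -0.36, limma adjusted p = 0.031), which puts the signal of this feature at 0.656 times its control level. Of all genes tested, 2.34% had a more negative difference, and Socs3 ranked 460 by p-value. It was also the lone member past the 1.5-fold cutoff on group means that the series' design text names, 0.58 log2 units, as were 5.24% of all genes. On the feature that stood for it, no member reached 2-fold, as 1.41% of all genes did. The call rests on all 4 arrays: with any 1 of them left out, the difference was between -0.69 and -0.53 and the adjusted p between 0.089 and 0.15. Without the filter on dim genes the adjusted p was 0.071.

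The dimmer of the pair of Socs3 features moved the same way. It read 4.63 and 4.33 in knockout cells, against 6.27 and 5.16 in control cells. The groups again did not overlap, and the control arrays were farther apart than on the brighter feature. The means were 4.48 ± 0.21 in knockout and 5.71 ± 0.79 in control cells (SD, n = 2 each), a difference of -1.23 (SE 0.41, 95% confidence interval -2.34 to -0.13). Fitted with every feature as a unit of its own, neither Socs3 feature passed, with adjusted p = 0.25 for the dimmer and adjusted p = 0.13 for the brighter. With the pair averaged, Socs3 differed by -0.92 (limma adjusted p = 0.051).

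**Figure D2:**
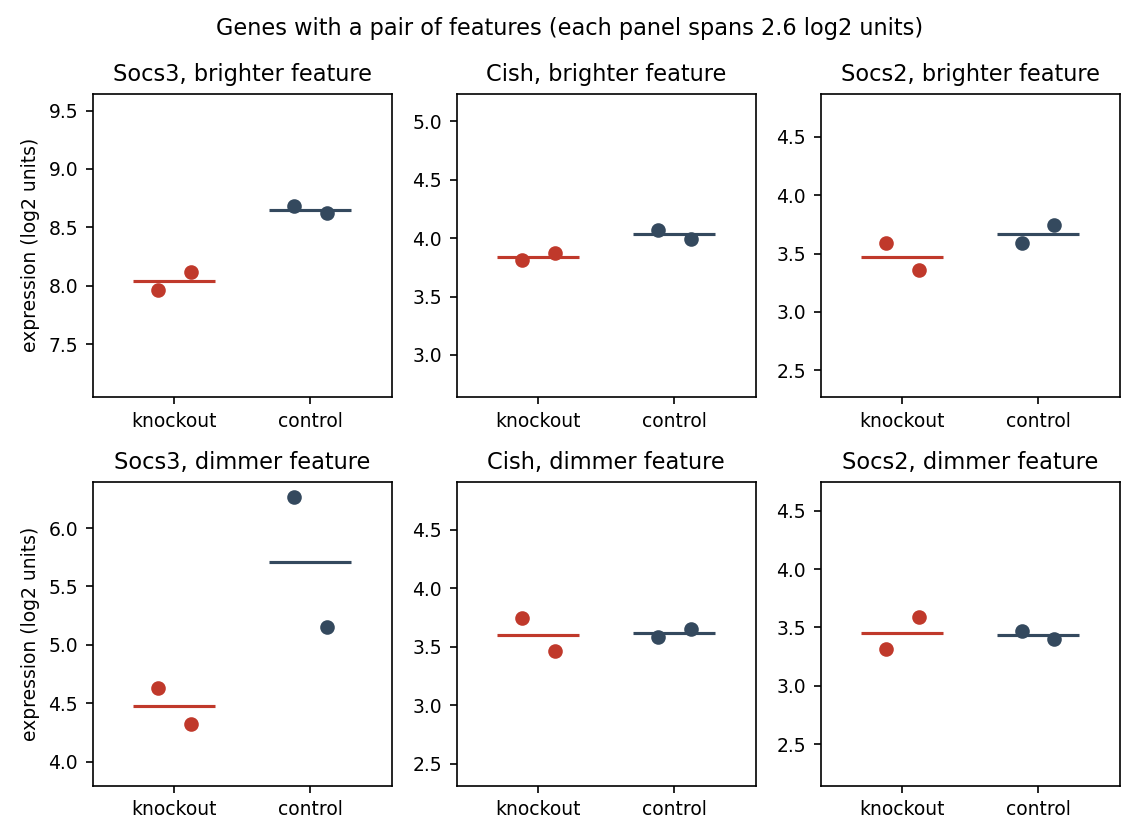
Expression in log2 units (y axis) on the 2 knockout arrays (red, left) and 2 control arrays (dark blue, right) for the 3 SOCS genes with a pair of features, the brighter above and the dimmer below. Points are arrays and lines are group means. Both Socs3 features are lower in knockout cells; of the Cish and Socs2 features, the brighter Cish feature alone has groups that do not overlap.

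Socs1, the member most tied to interferon, showed no difference that these arrays could resolve. It read 3.92 and 4.24 in knockout cells, against 4.05 and 4.14 in control cells. The knockout arrays enclosed the control arrays. The difference was -0.01 (SE 0.13, 95% confidence interval -0.34 to 0.31, limma adjusted p = 0.96). The signal was dim, 4.08 ± 0.22 in knockout and 4.10 ± 0.07 in control cells (SD, n = 2 each).

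Cish and Socs2 encode the members known as feedback inhibitors of STAT5 signalling, downstream of receptors such as those of erythropoietin and growth hormone, and both were dim. Cish read 3.81 and 3.87 in knockout cells, against 4.07 and 4.0 in control cells. Both knockout arrays lay below both control arrays, but the difference of -0.19 (SE 0.09, 95% confidence interval -0.41 to 0.03) did not pass (limma adjusted p = 0.25). The other Cish feature differed by -0.01, with overlapping groups. Socs2 read 3.59 and 3.36 in knockout cells, against 3.59 and 3.74 in control cells, and a knockout and a control array met at the same value. Its difference was -0.19 (SE 0.12, 95% confidence interval -0.49 to 0.10, limma adjusted p = 0.37), and its other feature, which lay under the filter level, differed by 0.02.

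The remaining members, Socs4 to Socs7, have long amino-terminal regions and are better known for binding growth factor receptors and their adaptors, such as the EGF receptor for SOCS4 and SOCS5, KIT for SOCS6 and the insulin receptor substrates for SOCS7. Socs5 read 5.54 and 5.71 in knockout cells, against 5.42 and 5.40 in control cells, a difference of 0.22 (SE 0.10, 95% confidence interval -0.03 to 0.46, limma adjusted p = 0.24). Socs4 read 6.58 and 6.56 in knockout cells, against 6.47 and 6.33 in control cells, a difference of 0.17 (SE 0.09, adjusted p = 0.32). Socs7 read 5.49 and 5.57 in knockout cells, against 5.37 and 5.38 in control cells, a difference of 0.15 (SE 0.09, adjusted p = 0.35). In these 3 genes both knockout arrays lay above both control arrays, as in 28.8% of all genes, and none of the differences passed. Socs6 read 4.07 and 4.18 in knockout cells, against 4.09 and 4.17 in control cells. Its groups overlapped almost fully, at a difference of 0.00 (SE 0.09, 95% confidence interval -0.23 to 0.23, adjusted p = 0.99).

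**Figure D3:**
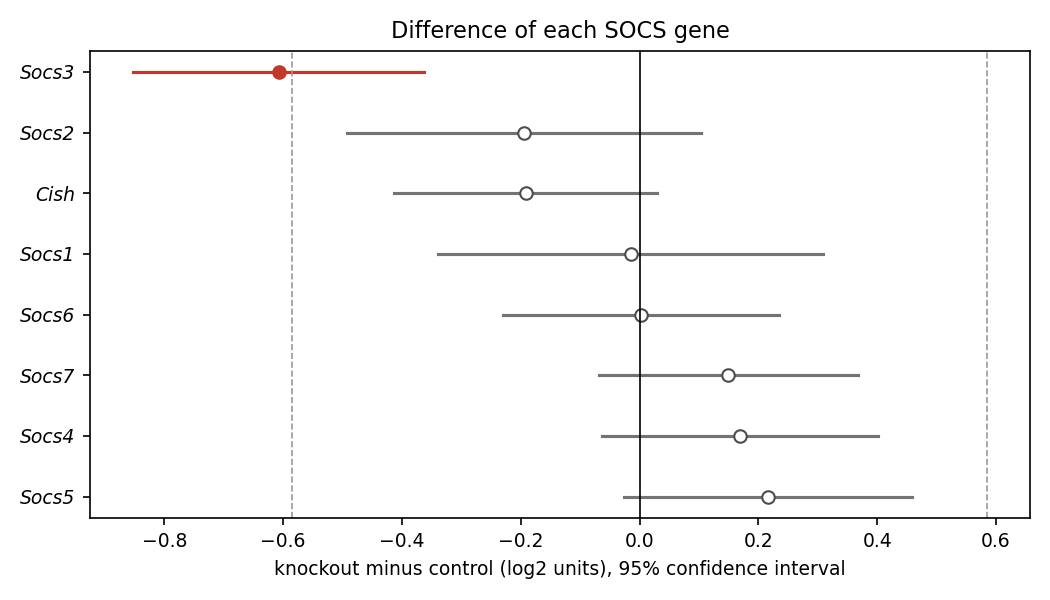
Knockout minus control (x axis, log2 units) for each SOCS gene, with its 95% confidence interval from limma; dashed lines mark a 1.5-fold difference either way. The filled point is Socs3, at -0.61; the open points, which did not pass, run from -0.19 to 0.22.

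Ordered by their difference, the members ran from Socs3 at -0.61 through Socs2 and Cish at -0.19, Socs1 at -0.01 and Socs6 at 0.00 to Socs7, Socs4 and Socs5 at 0.15, 0.17 and 0.22. The 95% confidence intervals of all 7 members other than Socs3 included 0. Those of 5 of them lay wholly above the interval of Socs3, and those of Cish and Socs2 met it; the differences between members were not tested themselves. The 7 intervals together reached from -0.49 to 0.46, short of a 1.5-fold difference (0.58 log2 units) either way. They rest on limma's variances, which combine each gene's own spread (2 residual degrees of freedom) with a spread pooled over genes (prior 3.51). With 2 arrays per group a gene's own spread is poorly known, so by themselves the intervals do not exclude a 1.5-fold difference. For Cish, Socs1, Socs2 and Socs6, which stood within 1 log2 unit of the filter level, the intervals describe the array signal and not the transcript. In RNA of whole cultures, fewer cells that express a gene and less of its RNA per cell cannot be told apart.

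The start sites of the cytokine-responsive members are shown to set letter matches to STAT and interferon motifs beside these values. RefSeq promoter windows of the mouse build GRCm38.p6, 250 bases before to 50 after a start site, were given for 4 of the 8 members, Cish, Socs1, Socs3 and Socs4. Capitals mark matches to the STAT motif TTCNNNGAA, which reads the same on both strands, or to the core of the interferon-stimulated response element, a pair of GAAA repeats with 2 bases between them, searched on both strands. The windows lie at chr11:117969317-117969616 on the minus strand for Socs3, chr9:107296409-107296708 on the plus strand for Cish and chr16:10785487-10785786 on the minus strand for Socs1.
Socs3: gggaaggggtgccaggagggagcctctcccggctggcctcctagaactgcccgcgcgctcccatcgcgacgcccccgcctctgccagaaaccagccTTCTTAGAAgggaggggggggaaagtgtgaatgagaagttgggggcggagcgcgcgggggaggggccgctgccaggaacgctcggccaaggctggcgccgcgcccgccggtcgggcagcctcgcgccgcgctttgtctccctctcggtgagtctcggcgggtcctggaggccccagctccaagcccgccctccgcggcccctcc
Cish: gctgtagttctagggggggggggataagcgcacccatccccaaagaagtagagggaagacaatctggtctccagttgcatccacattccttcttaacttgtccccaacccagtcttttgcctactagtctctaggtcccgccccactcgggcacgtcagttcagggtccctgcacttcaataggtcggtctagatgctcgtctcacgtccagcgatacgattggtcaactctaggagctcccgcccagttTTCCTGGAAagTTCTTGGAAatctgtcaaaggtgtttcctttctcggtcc
Socs1: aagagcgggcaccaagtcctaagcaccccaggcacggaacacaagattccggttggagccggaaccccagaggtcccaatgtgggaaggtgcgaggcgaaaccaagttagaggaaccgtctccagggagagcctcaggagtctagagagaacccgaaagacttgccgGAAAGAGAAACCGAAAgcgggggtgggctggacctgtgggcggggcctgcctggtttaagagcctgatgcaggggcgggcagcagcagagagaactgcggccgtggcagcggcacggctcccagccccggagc
The Socs3 window held 1 STAT motif, 154 bases upstream of the start site, and the Cish window held 2, at bases 1 and 12 of the transcript. The Socs1 window held 2 overlapping interferon element cores, 83 and 77 bases upstream, and no STAT motif. Of all 32851 windows of this length, 8.30% held TTCNNNGAA and 3.44% held the interferon element core. The Socs4 window held neither, and none of the 4 windows held the STAT motif with 4 in place of 3 bases between TTC and GAA, present in 6.95% of all windows, or the TATA box TATAAA, present in 13.6%, on either strand. A match describes the letters of the window; binding was not measured.

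The cytokines that induce SOCS genes moved both ways around the fall of Socs3. Of 13 tested cytokines that signal through JAK and STAT, 3 rose and 3 fell, with a median of -0.23 log2 units. Over all genes tested, 3.30% were called as higher and 3.49% as lower. Il6, which signals through gp130 and STAT3, read 6.57 and 6.46 in knockout cells, against 5.31 and 5.63 in control cells, and rose by 1.04 (SE 0.13, adjusted p = 0.017). Lif, another gp130 ligand, read 5.83 and 5.69 in knockout cells, against 6.25 and 6.50 in control cells, a difference of -0.62 (SE 0.12, adjusted p = 0.044). This pair of ligands of the same receptor subunit thus differed in opposite directions. Lif was picked with its value known, and the pair need not stand for other ligands of that subunit. Il10, which also acts through STAT3, read 9.28 and 9.35 in knockout cells, against 9.70 and 9.39 in control cells, and did not pass at -0.23 (SE 0.13, adjusted p = 0.32). Ifnb1, the gene of interferon beta, rose by 1.26 (SE 0.14) and Il15 by 0.78 (SE 0.09). Csf2, the gene of GM-CSF, whose receptor signals through STAT5, differed by -1.23 (SE 0.19), or by -0.60 (adjusted p = 0.033) with its features averaged, and Il12b by -0.94 (SE 0.16). Of the 29 called genes named here, 28 lost their call when some single array was left out, all but the monocyte marker Ms4a4c, and none changed direction under any alternative.

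**Figure D4:**
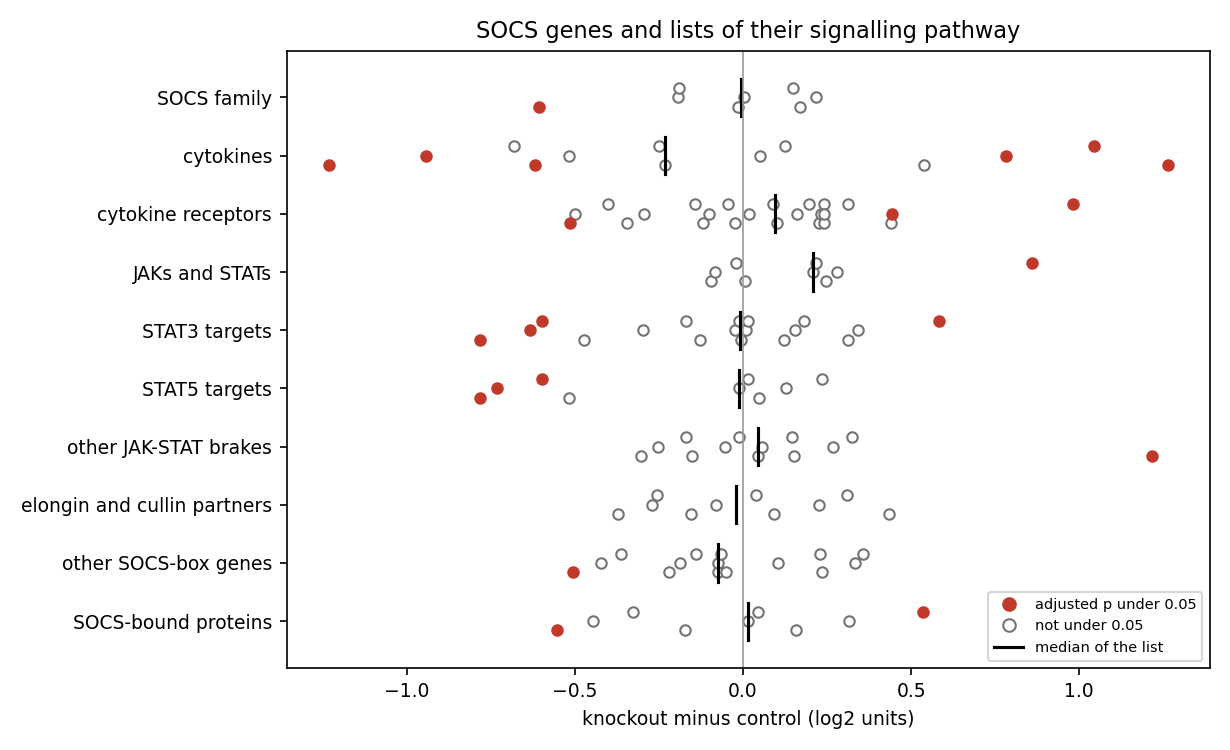
Knockout minus control (x axis, log2 units) of each tested gene in the SOCS family and in the lists of its pathway (rows); filled points passed at an adjusted p under 0.05, open points did not, and the black bar is the median of the list. Socs3 is the filled point of the family at -0.61; the list of cytokines has points that passed on both sides of 0, from -1.23 to 1.26.

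Of 33 tested receptors and signal carriers, 4 were called, or 12.1%, beside 6.79% of all genes tested. Of 24 tested cytokine receptors, Lifr, the LIF receptor that pairs with gp130, rose by 0.98 (SE 0.10) and Il6ra, the ligand-binding chain for IL-6, by 0.44 (SE 0.09), while Il13ra1 fell by 0.52 (SE 0.10); the median was 0.10. Il6ra read 9.37 and 9.38 in knockout cells, against 8.97 and 8.90 in control cells. Il6st, which encodes gp130, the receptor that SOCS3 binds, differed by 0.10 (SE 0.09, adjusted p = 0.54). Of 9 tested JAKs and STATs, Stat2, a subunit of the interferon-activated transcription factor complex, rose by 0.86 (SE 0.10) and none fell, with a median of 0.21. Stat3 read 9.92 and 9.96 in knockout cells, against 9.61 and 9.78 in control cells, and did not pass at 0.25 (SE 0.10, adjusted p = 0.20). Jak2 differed by 0.28 (SE 0.12, adjusted p = 0.22).

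Genes that STATs are known to induce were set beside the SOCS genes that share this control. Over all genes tested, 3.30% were called as higher and 3.49% as lower, and both lists are short. Of 18 tested STAT3 targets, 1 rose and 3 fell, and the median was -0.01. The falls were in Bcl2l1, an inhibitor of apoptosis, at -0.78, Il1rn, the IL-1 receptor antagonist, at -0.63, and the cyclin gene Ccnd1 at -0.60, and the rise was in Lcn2, an iron-scavenging lipocalin, at 0.58. Pim1, a kinase gene induced through STAT3 and STAT5, differed by -0.01 (SE 0.11, adjusted p = 0.96). Of 9 tested STAT5 targets other than Cish and Socs2, Bcl2l1, Bcl2 at -0.73 and Ccnd1 fell and none rose, with a median of -0.01; Bcl2l1 and Ccnd1 stand on both lists. With its features averaged, Bcl2 differed by -0.40 and did not pass (adjusted p = 0.064).

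Among brakes of other kinds, 1 of 13 tested genes rose and none fell, with a median of 0.04. As 6.79% of all genes tested were called, so few calls in this and the next lists are no result about the lists. Usp18, an interferon-induced protease that removes ISG15 and blocks the interferon receptor, read 8.51 and 8.26 in knockout cells, against 7.47 and 6.87 in control cells, and rose by 1.22 (SE 0.21, adjusted p = 0.036). Usp18 and Socs3, both feedback genes, differed in opposite directions. None of the 10 tested elongin, cullin and RING partners of the SOCS box passed, with differences between -0.37 and 0.43 and a median of -0.02; Cul5 differed by 0.04 (SE 0.11, adjusted p = 0.86). Of 15 tested genes of other SOCS-box proteins, Wsb2 fell by 0.51 (SE 0.09) and none rose, with a median of -0.07. Of 9 tested receptors and adaptors that SOCS proteins are described to bind, Tirap, an adaptor of Toll-like receptor 4 that SOCS1 targets, rose by 0.54 (SE 0.10), and Irs2, an insulin receptor substrate, fell by 0.55 (SE 0.10); the median was 0.01.

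The search for patterns like that of Socs3 left out the SOCS members and genes with provisional names, such as Gm and Rik names. Among the other tested genes, the most alike over the 4 arrays were found by Euclidean distance between values centred on each gene's own mean. They were P2ry2, a nucleotide receptor, at a distance of 0.029 log2 units, Afdn, a junction protein, at 0.034, and Ran, a GTPase of nuclear transport, at 0.035. P2ry2 read 8.43 and 8.60 in knockout cells, against 9.12 and 9.06 in control cells. Likeness over 4 arrays of 2 groups describes these arrays.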

How the data were processed

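The deposited log2 values are the authors' robust multi-array averages (RMA), background-subtracted and normalized between arrays, per the series' design text; per the submitters' processing notes the tools were RMA and oligo, with no version given. Such normalization removes any change in total RNA per cell. The table holds 41345 features on 4 arrays, of which 23521 had 1 gene symbol in the platform annotation, 1814 had several and 16010 had none. Precision is limited by the number of arrays, and p-values rest on the spread between these samples, which may be technical.

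Knockout was compared with control in limma 3.58.1 (R 4.3.3; lmFit and eBayes, 2 residual degrees of freedom, prior 3.51), two-sided, over the 12542 genes whose mean reached 3.53. An exact permutation test of 2 against 2 arrays cannot give a p under 0.333. The script was tested on simulated data. The labels state no pairing by replicate number. Deviations of arrays with the same number correlated over genes at -0.04, which cannot show whether they shared a litter, batch or day.

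Named were all members, up to 4 called genes per list, a set of fixed genes and the 3 nearest profiles of a called member. Lif, Il15 and the named markers were picked with their values known. Members and lists were chosen with earlier results of these data known, and 1 planned list is not reported here. Alternatives covered filters, normalization, features, arrays left out, the replicate block and the variance model.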

Additional observations from a re-analysis of the deposited data

How the results depend on the processing

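The Socs3 difference was negative under all 15 alternatives and passed in 6: the stricter filter, quantile normalization, median centring, the trended and robust variance models and array weights. It did not pass with no filter (-0.61, limma adjusted p = 0.071), with a gene's features averaged (-0.92, 0.051), with the replicate block (-0.61, 0.076), without pooled variances (-0.61, 0.22), with features as units (-0.61, 0.13), or with any 1 array left out (-0.69 to -0.53, 0.089 to 0.15); the number of SOCS genes called was then 0 in place of 1. At 2-fold in place of 1.5-fold, 0 members were past the cutoff on the brightest feature. Of all genes tested, 852 were called; this was 333 with no filter, 312 with the replicate block, 1584 with the trended variance model, 15 of 20673 features as units (3641 at an unadjusted p under 0.05), 0 without pooled variances (2295 at an unadjusted p under 0.05), and 96 to 174 with 1 array left out. Leaving out knockout replicate 1, knockout replicate 2, control replicate 1 or control replicate 2 gave 96, 101, 174 and 164. The fits with fewer arrays or with the block have fewer residual degrees of freedom, and with 1 array in a group its spread is taken from the other group.

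Differences near 0 changed sign without passing. With 1 array left out, Il10 ranged from -0.39 to -0.076 and Socs2 from -0.31 to -0.076, with no change of sign, and Socs1 ranged from -0.17 to 0.14, Socs6 from -0.052 to 0.056, Cul5 from -0.067 to 0.14, Cd209a from -0.18 to 0.10 and Pim1 from -0.10 to 0.072. Socs6 was -0.035 with quantile normalization and -0.040 with median centring, and Cul5 was -0.0026 with median centring. Of the 29 called genes named, members included, 0 turned direction under any alternative and 1, Ms4a4c, kept its call with each array left out in turn. Replicate numbers share no stated litter, batch or day, so the block is not known to be a pairing. Dim signals limit what can be said of Cish, Socs1, Socs2 and Socs6.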
